A study of Mus musculus with 20 samples.

Results

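The DNA replication and S phase machinery is followed here as 40 mouse genes, chosen by symbol: 10 licensing genes, 6 genes of helicase activation, 8 genes of polymerases and primase, 6 of the sliding clamp and its loader, 2 of Okazaki fragment joining, 5 of nucleotide supply and 3 of histone supply. All 40 symbols were found among the 26099 genes listed in the acute table and the 26486 listed in the survival table. All 40 also passed the filter on low values in both tables, so none was lost to it.

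Before S phase the origin recognition complex, with Cdc6 and Cdt1, loads the ring of Mcm2 to Mcm7 onto DNA, which licenses an origin. Cdc45 and the GINS complex then turn this ring into the moving helicase. Polymerase alpha with primase, polymerase epsilon and polymerase delta copy the strands behind it, and the PCNA clamp holds polymerases epsilon and delta. Most of these genes are transcribed under E2F factors as cells pass from G1 into S phase, so their RNA is high in dividing leukemic blasts, and several antimetabolites used against T-cell acute lymphoblastic leukemia (T-ALL) interfere with nucleotide supply.

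The libraries come from the spleens of mice that were irradiated below a lethal dose and given Acly conditional knockout T-ALL by vein. Acly encodes ATP-citrate lyase, which makes cytosolic acetyl-CoA from citrate. For the acute arm, animals already overtly leukemic received tamoxifen at 3 mg per mouse in corn oil (KO, 4 libraries) or corn oil alone (WT, 6 libraries), and their spleens were harvested after 72 h. For the survival arm, the same treatments were given 48 h after transplantation (KO, 5 libraries, and WT, 5 libraries), and harvest followed at the humane endpoint of each animal. The WT libraries are thus the same conditional leukemia without tamoxifen, so that tamoxifen and deletion cannot be told apart. No label gives the driver of the recombinase, the exons removed or the number of independent leukemias, and p-values measure the spread between libraries, since nothing states that each is a separate mouse. Red cells were lysed and no sort for leukemic cells is named, so RNA of the recipient's own spleen cells is included. In such bulk samples fewer cells of a type and less RNA per cell cannot be told apart.

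Totals of normalized counts ranged from 19432235 to 21623571 over the 20 libraries. Acly RNA was 5226, 6228, 6402 and 4823 normalized counts in acute KO libraries 1 to 4, against 7406 to 8280 in the 6 acute WT libraries, and 2174 to 4017 in the 5 survival KO libraries, against 7396 to 8825 in the 5 survival WT libraries. The groups did not overlap in either arm, with log2 fold changes of -0.46 (SE 0.0747, limma adjusted p = 0.000866) in the acute arm and -1.38 (SE 0.131, adjusted p = 0.0016) in the survival arm. With libraries scaled to T-cell receptor beta genes the acute value was -0.089 (adjusted p = 0.639). Exact two-sided permutation tests gave p = 0.00476 and p = 0.00794, the smallest that 210 and 252 arrangements can give. In the acute arm 16 of 20 T-lineage markers were lower in KO, with summed levels of 210809 to 289720 in KO libraries, against 311361 to 330746 in WT libraries. There all 12 neutrophil markers were higher (sums of 170465 to 589209 in KO, against 11726 to 45962 in WT). So were all 8 myeloid precursor, all 12 monocyte and macrophage, all 10 B-cell and all 8 NK markers tested. Of plasma-cell and dendritic-cell markers, 4 of 6 and 3 of 7 were higher. By limma 0 of 12 erythroid markers were called, with 5 at an unadjusted p under 0.05, beside 6812 of all 16363 genes tested. No marker of any of these lists was at 0 in all libraries. A score averaged over markers of other cell types was 0.65 to 1.92 in acute KO libraries, highest in KO 2 and KO 3, against -1.20 to -0.40 in acute WT libraries. In the survival arm it was -0.40 to 0.53 in KO, against 0.016 to 0.12 in WT. There limma called 0 of 20 T-lineage markers, with 3 at an unadjusted p under 0.05, beside 1411 of all 16136 genes tested.

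The bases before the starts of 7 members are shown first, because these 7 passed the test in the acute arm. Their promoters show which of them hold a match to an E2F motif. Each line gives the 120 bases before the annotated start, from RefSeq promoters of build GRCm38.p6, 5′ to 3′ on the gene's own strand. Capitals mark matches to an E2F motif spelled TTTCCCGC, TTTGGCGC, TTTCGCGC or TTTGCCGC, searched on both strands.
Mcm6 promoter, chr1:128359706-128359825, reverse strand: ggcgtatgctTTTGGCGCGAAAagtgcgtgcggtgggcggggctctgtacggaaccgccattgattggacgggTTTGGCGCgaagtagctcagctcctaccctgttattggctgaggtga
Rfc3 promoter, chr5:151651209-151651328, reverse strand: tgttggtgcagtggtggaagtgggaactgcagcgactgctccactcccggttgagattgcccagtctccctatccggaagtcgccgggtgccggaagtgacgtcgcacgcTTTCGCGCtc
Mcm10 promoter, chr2:5012792-5012911, reverse strand: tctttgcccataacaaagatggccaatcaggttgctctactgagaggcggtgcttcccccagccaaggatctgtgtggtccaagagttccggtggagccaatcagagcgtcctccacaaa
Cdc45 promoter, chr16:18811973-18812092, reverse strand: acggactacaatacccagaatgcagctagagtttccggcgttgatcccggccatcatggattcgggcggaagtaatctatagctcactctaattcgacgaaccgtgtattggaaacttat
Rrm2 promoter, chr12:24708134-24708253, forward strand: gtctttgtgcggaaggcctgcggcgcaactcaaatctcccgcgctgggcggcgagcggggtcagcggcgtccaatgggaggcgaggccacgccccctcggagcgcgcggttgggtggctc
Tk1 promoter, chr11:117826015-117826134, reverse strand: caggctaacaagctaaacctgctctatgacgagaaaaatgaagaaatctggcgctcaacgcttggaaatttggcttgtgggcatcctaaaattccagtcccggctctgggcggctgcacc
Dut promoter, chr2:125247395-125247514, forward strand: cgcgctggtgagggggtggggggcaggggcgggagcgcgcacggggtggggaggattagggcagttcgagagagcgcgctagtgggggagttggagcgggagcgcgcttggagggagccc
The Mcm6 promoter held 3 matches, beginning at positions -110, -106 and -47 from the start, of which the first 2 overlap on opposite strands. The Rfc3 promoter held 1 match in the stretch shown, at -10, and another just past the start. No match to these letters was found in the windows of Mcm10, Cdc45, Rrm2, Tk1 and Dut. RefSeq promoters were found for 33 of the 40 members. In a window running 250 bases before to 50 bases after the start, 13 of these 33 genes (39.4%) held a match, against 704 of 27025 genes (2.60%) with any promoter in the table and 1 of 22 mitosis genes (4.55%). The 13 were Orc1, Cdc6, Cdt1, Mcm3, Mcm5, Mcm6, Mcm7, Gins3, Pola1, Pole2, Pold1, Rfc3 and Lig1. Within the 250 bases before the start alone, 8 of 33 members (24.2%) and 583 of 27025 genes (2.16%) held one.

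In the acute arm the replication genes moved little and in both directions. The cofactor of helicase activation Cdc45, the helicase activator Mcm10, the ribonucleotide reductase subunit Rrm2 and the salvage kinase Tk1 were higher in KO spleens, by 0.17 to 0.22 on the log2 scale. The dUTPase Dut, the clamp loader subunit Rfc3 and the helicase subunit Mcm6 were lower as deposited, by 0.17 to 0.27. With libraries scaled to T-cell receptor beta genes, which moved the median of all genes to 0.34, these 3 were at 0.096, 0.12 and 0.19 and none was called. In all, limma called 7 of the 40 members (17.5%) at an adjusted p under 0.05, beside 31.4% of the 16363 genes tested. The 4 members called higher stand beside 16.7% of all genes called higher, and the 3 called lower beside 14.7% called lower. At an unadjusted p under 0.05 there were 10 members, beside 6812 of the 16363 genes. The median member log2 fold change was -0.035, beside -0.023 over all genes tested, with 17 members above 0 and 23 below. The groups did not overlap for 3 members, Mcm10, Cdc45 and Rrm2, beside 22.7% of all genes tested. Every 95% interval of the 40 lay within 0.5 of 0 on the log2 scale, from -0.42 (Rfc3) to 0.35 (Cdc45), so as deposited changes beyond 0.746-fold and 1.28-fold fall outside these intervals. The counts changed with single libraries, to 2 higher without KO 3 and 6 higher without KO 4, and to 5 lower without KO 1 and 1 lower without KO 2, KO 4, WT 2 or WT 4. Of all genes, 22.4% were called without KO 3, 30.7% without KO 4, 32.7% without KO 1 and 22% without KO 2. The share was 27.8% without WT 2 and 27.4% without WT 4. Without KO 2 and KO 3 together limma called Cdc45 alone, beside 12.1% of all genes. With a block for replicate number limma called 0 members, beside 20.5% of 15974 genes. With the other-cell score as a covariate it called 0 members and 0 genes.

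**Figure D1:**
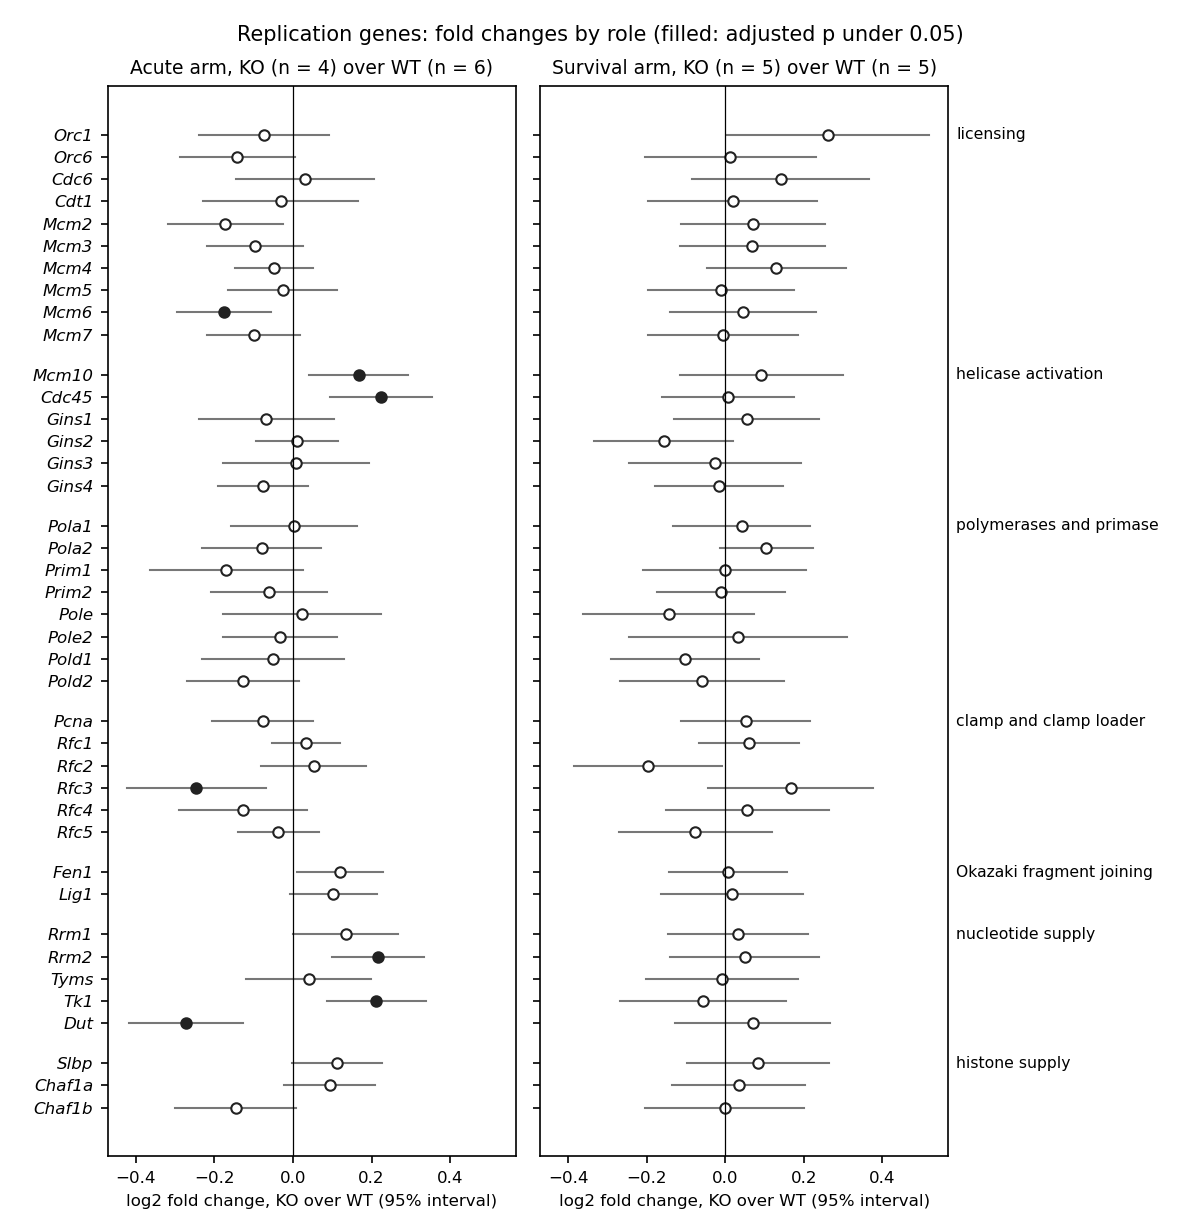
Log2 fold change of each replication gene, KO over WT, with its 95% interval, in the acute arm (left, 4 KO and 6 WT libraries) and the survival arm (right, 5 and 5), grouped by role. Filled points passed an adjusted p of 0.05: 7 in the acute arm, spread over both sides of 0, and 0 in the survival arm. The 3 filled points below 0 lie above 0, uncalled, when libraries are scaled to T-cell receptor beta genes or T-lineage markers.

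Among the 10 licensing genes, 9 log2 fold changes were below 0 in the acute arm, with a median of -0.085. Of the 10, limma called 1 (10%), beside 31.4% of all genes tested. Mcm6, a subunit of the helicase ring and the gene with the 3 E2F matches above, had 12984, 11401, 12112 and 11704 normalized counts in KO libraries 1 to 4, against a lowest of 12364, a median of 13615 and a highest of 14817 in the 6 WT libraries. Of the 4 KO libraries, 3 lay below every WT library and KO 1 lay within their range. As means this was 12050 ± 688 in KO (SD, n = 4) and 13604 ± 804 in WT (SD, n = 6), a log2 fold change of -0.17 as deposited (SE 0.0548, limma adjusted p = 0.0297), which turned to 0.19 (adjusted p = 0.0702) with T-cell receptor beta scaling and 0.16 (adjusted p = 0.0566) with T-lineage scaling. Its call was lost without KO 2, KO 3, KO 4, WT 2, WT 4 or WT 6, at -0.18 to -0.15 and adjusted p of 0.0563 to 0.0909, and in limma without trend (adjusted p = 0.0677).

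Mcm2, another subunit of the same ring and a target of the kinase that fires origins, had 12351, 11015, 12145 and 10657 normalized counts in the 4 KO libraries, against 11826, 12727 and 14736 as the lowest, median and highest of WT. KO 1 and KO 3 overlapped WT, and KO 2 and KO 4 lay below it. Its log2 fold change of -0.17 (SE 0.0674) had an adjusted p of 0.0718 by limma, and turned to 0.20 (adjusted p = 0.176) with scaling to T-cell receptor beta genes. The ring holds its subunits in equal number, and their RNA levels were compared per kilobase of the longest coding transcript in a GENCODE annotation of the previous mouse build. By this measure Mcm7 was the highest, at 3692 ± 210 normalized counts per kilobase in KO (SD, n = 4) and 3956 ± 226 in WT (SD, n = 6), followed by Mcm2 and Mcm3 in both groups, and Mcm4 was the lowest, at 1810 ± 75.5 in KO and 1872 ± 81.4 in WT. Between them Mcm5 (2883 ± 221 in KO and 2934 ± 204 in WT) and Mcm6 (2767 ± 158 in KO and 3124 ± 185 in WT) changed places, by less than the SD of Mcm5. The origin recognition subunit Orc6 (-0.14), the loader Cdt1 (-0.031) and the ATPase Cdc6 (0.031) were not called, with adjusted p of 0.13, 0.833 and 0.817.

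Of the 6 genes of helicase activation 2 were called (33.3%), beside 31.4% of all genes tested. Both were higher in acute KO spleens, and the 4 GINS subunits were not called. Cdc45, which joins the ring to form the active helicase, had 2592, 2276, 2145 and 2112 normalized counts in KO libraries 1 to 4, against 1863, 1935 and 2079 as the lowest, median and highest of WT. All 4 KO libraries lay above all 6 WT libraries, KO 1 farthest. It averaged 2281 ± 219 in KO (SD, n = 4) and 1947 ± 72.6 in WT (SD, n = 6). The log2 fold change was 0.22 (SE 0.0598, limma adjusted p = 0.014). It stayed above 0 in all 20 alternatives and passed in 18. These reuse the same libraries, and both T-cell scalings put all 40 members above 0, so they are not separate support. The call was lost with a block for replicate number and with the other-cell score as a covariate.

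Mcm10, a scaffold that helps start unwinding, had 2283, 1903, 2128 and 1924 normalized counts in KO, against 1720, 1837 and 1900 as the lowest, median and highest of WT. The groups did not overlap, but KO 2 and KO 4 stood close above the highest WT libraries. Its log2 fold change was 0.17 (SE 0.058, adjusted p = 0.0454 by limma). The call was lost in 14 of 20 alternatives. Among these were leaving out KO 1, KO 3 or any 1 of the 6 WT libraries, at 0.12 to 0.18 and adjusted p of 0.0545 to 0.128, quantile normalization (0.14, adjusted p = 0.0861), no filter on low values (adjusted p = 0.0729) and limma without trend (adjusted p = 0.0843). The GINS log2 fold changes ran from -0.076 (Gins4) to 0.011 (Gins2).

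None of the 8 genes of polymerases and primase was called in the acute arm by limma, beside 31.4% of all genes tested. None had an unadjusted p under 0.05, beside 6812 of the 16363 genes. Their log2 fold changes ran from -0.17 for Prim1, the catalytic primase subunit, to 0.024 for Pole, the catalytic subunit of the leading strand polymerase, with a median of -0.056. Pola1, the catalytic subunit of polymerase alpha, was level between the groups, at 2918 ± 269 in KO (SD, n = 4) and 2912 ± 241 in WT (SD, n = 6), with a 95% interval of -0.16 to 0.16. Pold1, the catalytic subunit of the lagging strand polymerase, averaged 4667 ± 603 in KO and 4814 ± 367 in WT.

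Of the clamp and the 5 subunits of its loader, 1 was called (16.7%), beside 31.4% of all genes tested. Rfc3, a small subunit of the loader that opens the clamp around DNA, had 1019, 928, 1131 and 1004 normalized counts in KO libraries 1 to 4, against 1046, 1225 and 1395 as the lowest, median and highest of WT. KO 3 lay within the WT range and the other 3 KO libraries below it. Its log2 fold change was -0.25 as deposited (SE 0.0817, adjusted p = 0.0382 by limma) and turned to 0.12 (adjusted p = 0.344) with T-cell receptor beta scaling and 0.088 (adjusted p = 0.448) with T-lineage scaling. The call was lost without KO 1, KO 2, KO 4, WT 2, WT 3, WT 4 or WT 5, at -0.25 to -0.20 and adjusted p of 0.0627 to 0.12, and also with no filter on low values (adjusted p = 0.0539) and in limma without trend (adjusted p = 0.0688).

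Pcna, the clamp itself and a standard marker of cycling cells, had 19486, 16220, 17045 and 15976 normalized counts in KO, against 16916, 18114 and 19149 as the lowest, median and highest of WT. KO 1 held the highest value of all 10 libraries and KO 2 and KO 4 the lowest. The log2 fold change of -0.077 (SE 0.0592, limma adjusted p = 0.362) turned to 0.29 (adjusted p = 0.0152) with scaling to T-cell receptor beta genes. Rfc1, Rfc2, Rfc4 and Rfc5 were not called, at -0.13 to 0.052.

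Of the 5 genes of nucleotide supply 3 were called (60%), beside 31.4% of all genes tested, and they differed in direction. Rrm2, the regulated subunit of the reductase that makes deoxyribonucleotides, had 10085, 9106, 9007 and 8552 normalized counts in KO libraries 1 to 4, against 7390, 7904 and 8424 as the lowest, median and highest of WT. All 4 KO libraries lay above the 6 WT libraries. It averaged 9188 ± 645 in KO (SD, n = 4) and 7901 ± 385 in WT (SD, n = 6). The log2 fold change was 0.22 (SE 0.0539, limma adjusted p = 0.0099). It stayed above 0 in all 20 alternatives, which reuse the same libraries and are not separate support. The call was lost at 0.23 (adjusted p = 0.0549) without KO 2 and KO 3 together. It was also lost with a block for replicate number and with the other-cell score as a covariate.

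Tk1, the kinase that salvages thymidine, had 2361, 2195, 2332 and 2153 normalized counts in KO, against 1803, 1929 and 2217 as the lowest, median and highest of WT. WT 4 alone reached into the KO range. Its log2 fold change was 0.21 (SE 0.0584, adjusted p = 0.0162 by limma), and without KO 3 it was 0.20 at an adjusted p of 0.0542. The call was also lost without KO 2 and KO 3 together, with the replicate block and with the other-cell covariate.

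Dut, which removes dUTP and supplies the precursor of thymidylate, had 9839, 7732, 8286 and 8295 normalized counts in KO, against 9354, 10378 and 10898 as the lowest, median and highest of WT. KO 1 lay within the WT range and the other 3 KO libraries below it. It averaged 8538 ± 906 in KO (SD, n = 4) and 10283 ± 551 in WT (SD, n = 6), the member farthest from 0, with a log2 fold change of -0.27 as deposited (SE 0.0661, limma adjusted p = 0.00874) that turned to 0.096 (adjusted p = 0.291) with T-cell receptor beta scaling and 0.062 (adjusted p = 0.425) with T-lineage scaling. Without KO 2 and KO 3 together it was -0.19 (adjusted p = 0.14). The replicate block and the other-cell covariate ended the call of Dut too. Rrm1, the partner of Rrm2 in the reductase, was at 0.13 (adjusted p = 0.118), and Tyms, thymidylate synthase, at 0.040 (adjusted p = 0.726).

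Fen1 and Lig1, the nuclease and the ligase that finish Okazaki fragments, were at 0.12 (adjusted p = 0.0888) and 0.10 (adjusted p = 0.146), not called by limma and with Fen1 alone at an unadjusted p under 0.05. Of the histone supply genes, Slbp, which binds the end of replication-dependent histone messages, was at 0.11, and the chromatin assembly subunits Chaf1a and Chaf1b were at 0.093 and -0.15. None of these 3 was called by limma and none had an unadjusted p under 0.05. Over all 16363 genes tested, 31.4% were called and 6812 had an unadjusted p under 0.05.

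**Figure D2:**
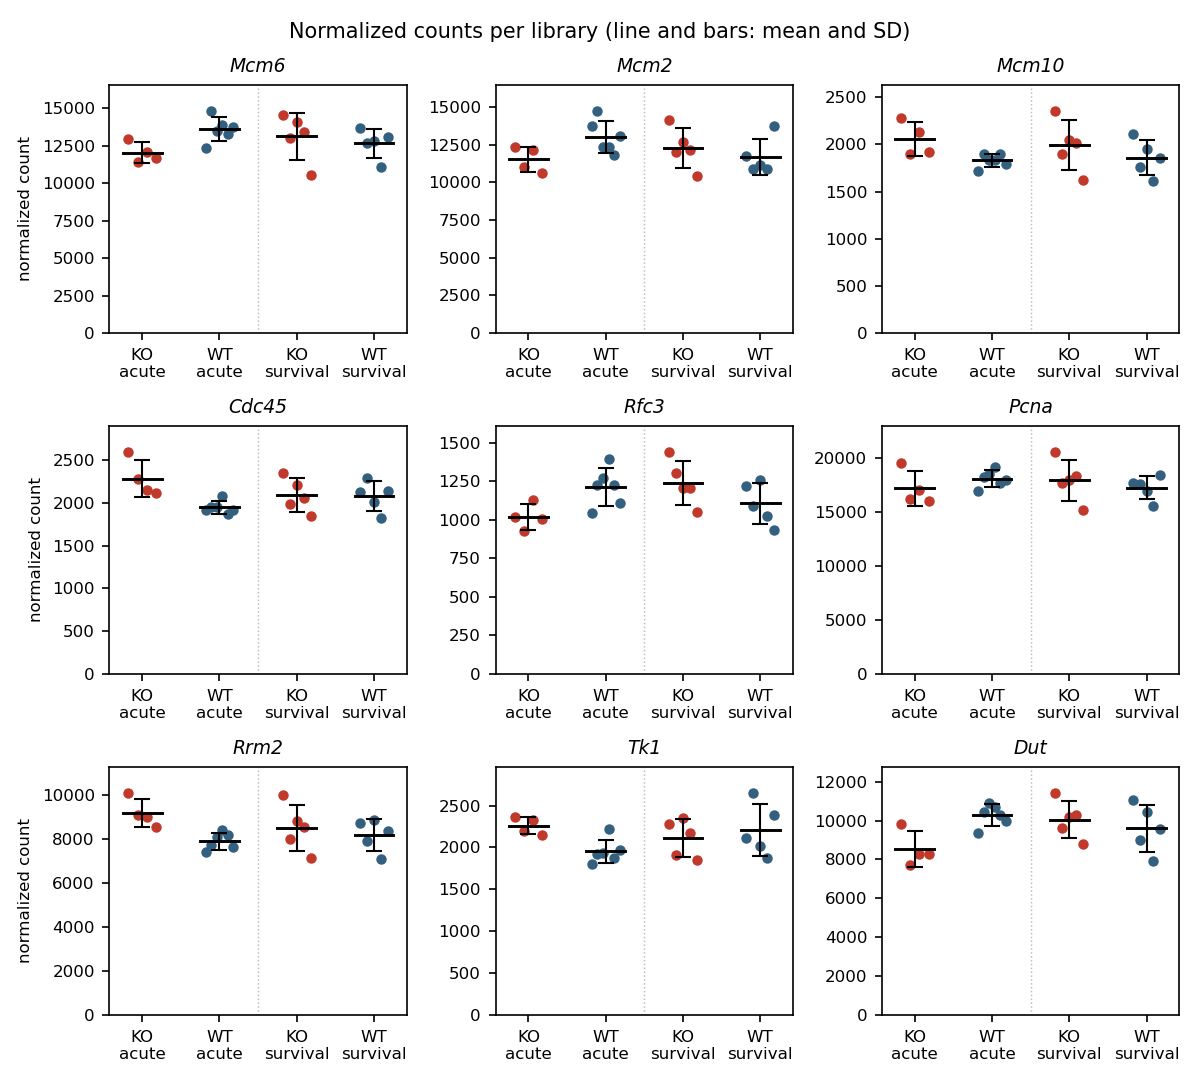
Normalized counts of 9 replication genes in each library, with KO left of WT in each arm, a line at the mean and bars of 1 SD. Acute KO libraries sit above all acute WT libraries for Mcm10, Cdc45 and Rrm2, while the survival groups overlap for all 9 genes.

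Members tended to be high or low in the same libraries. In the acute arm KO 1 was the highest KO library for 30 of 40 members and KO 4 the lowest for 21, and among WT libraries WT 2 was the highest for 17 and WT 1 the lowest for 22. Averaged over the 40 genes, log2 differences from the WT mean were 0.082, -0.068, -0.0086 and -0.090 in KO libraries 1 to 4, against -0.073 to 0.065 in the 6 WT libraries. The library means thus overlapped, and the 40 genes made up 0.809 to 0.941% of all normalized counts in KO and 0.864 to 0.932% in WT. The KO libraries with the highest scores of other cell types, KO 2 (1.92) and KO 3 (1.59), were at -0.068 and -0.0086 in this mean. KO 1 (score 0.65) was the highest KO library and KO 4 (score 1.00) the lowest. Whether the score and this mean are linked was not tested. The spread between libraries was small, with coefficients of variation over members of 2.40 to 14.6% in KO (median 7.19%) and 2.08 to 10.8% in WT (median 6.59%).

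**Figure D3:**
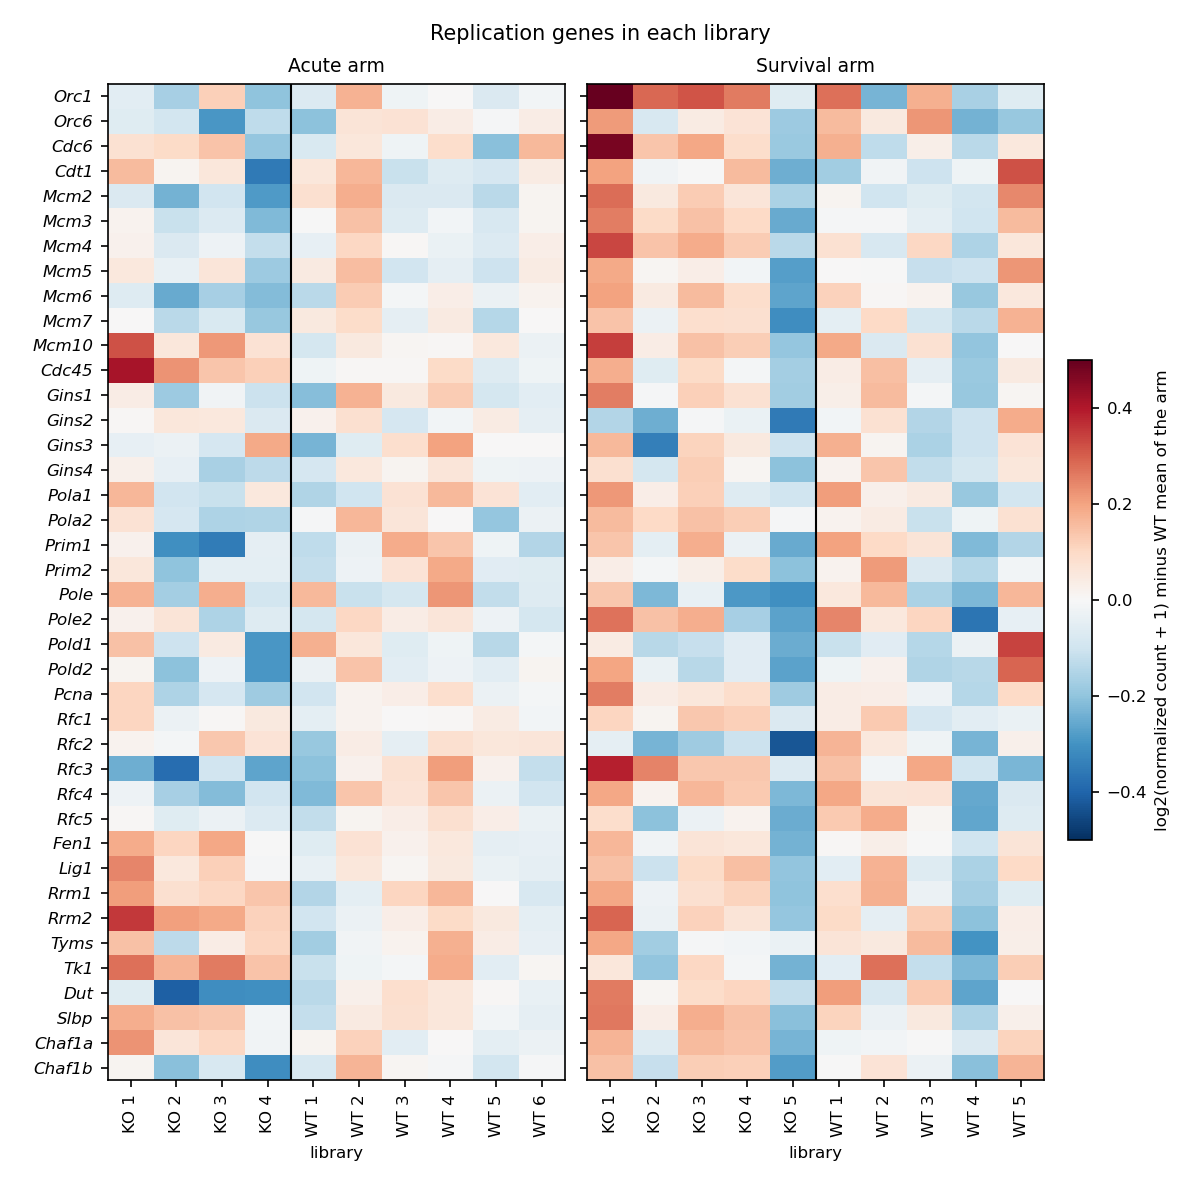
Log2 difference of each replication gene (rows) from the WT mean of its arm in each library (columns, KO left of WT), with colours saturating at 0.5. In the acute arm the rows of Dut and Rfc3 are mostly blue and those of Cdc45 and Rrm2 red across the KO libraries as deposited, and in the survival arm the column of KO 1 is mostly red and that of KO 5 mostly blue.

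The sign of most acute changes in this machinery depended on what the libraries were scaled to. Scaled to the summed T-cell receptor beta genes, which T cells express, the median of all genes moved to 0.34 and that of the 40 members to 0.33, all 40 members lay above 0 and 28 were called higher, beside 42.5% of all genes called higher. Scaled to T-lineage markers, the medians were 0.31 over all genes and 0.30 over members, and 32 members were called higher, beside 45.6% of all genes, and 0 lower. Both scalings shift all genes of a library together, so a gene's place beside the median of all genes is kept by construction. Under T-cell receptor beta scaling Dut (0.096), Rfc3 (0.12) and Mcm6 (0.19) thus lay below that median. Cdc45 (0.59), Rrm2 (0.58), Tk1 (0.58) and Mcm10 (0.54) lay above it, which adds no support to their calls. Under quantile normalization the median of all genes was -0.13 and 3 members were called higher and 4 lower, beside 39.3% of all genes called. When the other-cell score, which separates KO from WT without overlap in this arm, entered the fit as a covariate, limma called 0 of the 40 members and 0 of all 16363 genes. What part markers of other cells have in the members' changes was not tested.

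**Figure D4:**
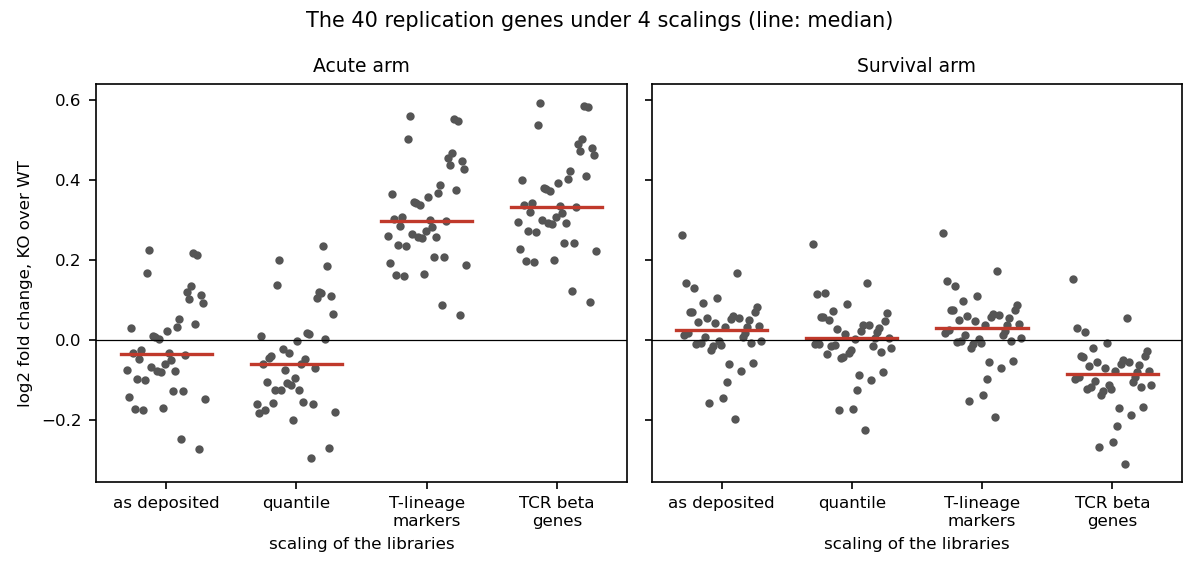
Log2 fold change, KO over WT, of the 40 replication genes (points, line at the median) with libraries as deposited, quantile normalized, scaled to T-lineage markers or scaled to T-cell receptor beta genes. Acute medians run from -0.059 to 0.33 and all 40 acute points lie above 0 under both T-cell scalings, while survival medians run from -0.085 to 0.031.

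Acly RNA fell further in the survival arm than in the acute arm (difference of log2 fold changes -0.92, SE 0.164, limma adjusted p = 0.000442), yet the 40 replication genes did not pass the test there. limma called 0 of 40, beside 0.0124% of the 16136 genes tested (2 genes, 0.0062% higher and 0.0062% lower). An unadjusted p under 0.05 was reached by 2 members, Orc1 and Rfc2, beside 1411 of the 16136 genes. No member had groups without overlap, beside 2.01% of all genes. Log2 fold changes ran from -0.20 for Rfc2 to 0.26 for Orc1, with a median of 0.026, beside 0.0087 over all genes, and 25 of the 40 lay above 0. For 39 of 40 members the 95% interval stayed within 0.5 of 0, and that of Orc1 reached 0.52. The count of 0 held in all 19 alternatives, though with T-cell receptor beta scaling 36 of 40 members lay below 0 and with T-lineage scaling 27 of 40 lay above it.

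Single genes show the overlap. Orc1, the ATPase subunit of the origin recognition complex, had 785, 673, 685, 660 and 528 normalized counts in survival KO libraries 1 to 5, against 668, 469, 623, 492 and 528 in WT libraries 1 to 5, an adjusted p of 0.553. Rfc2 had 1167, 1023, 1065, 1118 and 895 in KO, against 1356, 1249, 1187, 1024 and 1226 in WT, an adjusted p of 0.543. In both genes at least 1 KO library lay within the WT range.

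Dut had 11410, 9595, 10166, 10286 and 8780 normalized counts in survival KO, against 11035, 9024, 10456, 7941 and 9543 in WT, a log2 fold change of 0.070 (SE 0.0909, adjusted p = 0.846 by limma). Rfc3 had 1438, 1304, 1206, 1206 and 1049 in KO, against 1217, 1089, 1258, 1027 and 937 in WT, a log2 fold change of 0.17 (SE 0.0971, adjusted p = 0.664). Cdc45 had 2348, 1982, 2212, 2054 and 1840 in KO, against 2121, 2294, 2004, 1821 and 2133 in WT, a log2 fold change of 0.0078 (SE 0.0776, adjusted p = 0.988). In all 3 the lowest KO library was KO 5, and the groups overlapped.

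Rrm2 averaged 8495 ± 1054 in survival KO and 8187 ± 726 in survival WT (SD, n = 5 each), and Mcm10 averaged 1988 ± 265 in KO and 1860 ± 188 in WT. Tk1 averaged 2112 ± 221 in KO and 2205 ± 310 in WT, and Mcm6 averaged 13136 ± 1570 in KO and 12682 ± 965 in WT. Pcna averaged 17910 ± 1901 in KO and 17224 ± 1064 in WT, and Mcm2 averaged 12284 ± 1327 in KO and 11685 ± 1197 in WT. All of these differences were smaller than the SD of either group. KO 1 was the highest KO library for 33 of 40 members and KO 5 the lowest for 38, and WT 4 was the lowest WT library for 28. Library means over the 40 genes were 0.19, -0.026, 0.088, 0.051 and -0.20 in KO 1 to 5, against -0.16 to 0.070 in WT, a wider spread than in the acute arm, with coefficients of variation of 4.47 to 16.5% in KO and 4.13 to 15.4% in WT.

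Fold changes were then compared between the arms, as survival minus acute. limma called 2 of 40 members, beside 20.2% of the 15673 genes tested in both tables, and both were positive, beside 9.39% of genes called positive. Rfc3 differed by 0.41 (SE 0.132, adjusted p = 0.0323) and Dut by 0.34 (SE 0.118, adjusted p = 0.046), and neither was called with T-cell receptor beta scaling (-0.066 and -0.14) or with T-lineage scaling (0.084 and 0.013). The call of Dut was also lost with no filter on low values (adjusted p = 0.0573) and in limma without trend (adjusted p = 0.0709). Leaving out 1 library ended the call of Rfc3 for KO 2, WT 3 and WT 4 of the acute arm and KO 1, KO 2, WT 4 and WT 5 of the survival arm, at 0.35 to 0.40 and adjusted p of 0.0512 to 0.0817. It ended that of Dut for 15 of the 20 libraries, all but KO 1 and WT 1 of the acute arm and KO 5, WT 1 and WT 3 of the survival arm, at 0.28 to 0.36 and adjusted p of 0.0545 to 0.114. The count was 6 positive members without survival KO 5, the library lowest for most members, and 0 without acute KO 2, WT 3 or WT 4 or survival KO 1, KO 2 or WT 4. Of all genes, 19.4% were called in either direction without survival KO 5. The share was 14.2 to 19.2% without each of those where the count was 0. Without survival WT 4, 1 member was called negative. All 10 licensing genes had a positive difference as deposited, with a median of 0.16 and 0 called. Of these 10, 2 had an unadjusted p under 0.05 by limma, beside 5227 of the 15673 genes. Under T-cell receptor beta scaling all 40 members had a negative difference, beside a median of -0.44 over all genes. Under T-lineage scaling 37 of 40 were negative, beside a median of -0.29 over all genes. As deposited, the 4 genes called higher in the acute arm did not pass this test between arms. The limma adjusted p was 0.132 for Cdc45, 0.118 for Tk1, 0.297 for Rrm2 and 0.704 for Mcm10, which does not show that the arms act alike. With T-cell receptor beta scaling all 4 were called negative, among 28 members and 7260 of the 15673 genes called negative. They were also called negative with T-lineage scaling, among 14 members and 4432 genes.

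Other genes of the pathway were taken from lists chosen with earlier results of these data known. Of 48 further replication genes, 8 were higher and 6 lower in acute KO (median -0.046), beside the 31.4% called over all genes. Samhd1, which breaks down deoxyribonucleotides, had 893, 3177, 2141 and 1272 normalized counts in KO libraries 1 to 4, against 237 to 455 in WT, a log2 fold change of 2.47 (adjusted p = 0.000114). It was highest in KO 2 and KO 3, the libraries with the highest score of other cell types. Without these 2 libraries its log2 fold change was 1.82 (limma adjusted p = 0.000335). The scores of KO 1 (0.65) and KO 4 (1.00), which remain, were also above the highest WT score (-0.40). With the other-cell score as a covariate, where limma called 0 genes, the log2 fold change of Samhd1 was -0.25. The part of other cells in this difference was not tested. The histone chaperone Asf1b was higher by 0.35, and its relative Asf1a (-0.28) and the fork protection gene Tipin (-0.21) were lower as deposited and turned to 0.092 and 0.16 with T-cell receptor beta scaling. The call of Tipin was lost without KO 2, KO 3, KO 4 or any 1 of WT 2 to WT 6 (adjusted p of 0.0534 to 0.142), and also with no filter on low values or without trend. The counts of this list moved to 5 higher without KO 1 or WT 6 and 3 without KO 3, and to 2 lower without KO 2 or KO 3 and 3 without WT 2, WT 3, WT 4 or WT 5. Of all genes, 32.7% were called without KO 1, 28.3% without WT 6, 22.4% without KO 3 and 22% without KO 2. The share was 27.3 to 27.8% without WT 2, WT 3, WT 4 or WT 5.

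Of 20 E2F and G1/S regulators, 6 were higher and 2 lower (median 0.055). This was 40% called, beside 31.4% of all genes tested (16.7% higher and 14.7% lower). The repressor E2f7 had 395, 536, 461 and 411 normalized counts in acute KO, against 192 to 236 in WT, a log2 fold change of 1.09 (SE 0.103, limma adjusted p = 3.84e-05). Its relative E2f8 had 3562, 3517, 3495 and 2887 in KO, against 2076 to 2323 in WT, a log2 fold change of 0.59 (adjusted p = 7.09e-05). Neither gene's groups overlapped. E2f6 (-0.38) and E2f4 (-0.21), a pair of E2F members known mainly as repressors, were lower as deposited, and with T-cell receptor beta scaling E2f4 turned to 0.16 and E2f6 was at -0.014 (adjusted p = 0.946). The call of E2f6 was lost without KO 2, KO 4, WT 2, WT 5 or WT 6 (adjusted p of 0.0518 to 0.0926).

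Of 13 genes of the replication stress checkpoint and fork repair, 4 were higher and 2 lower (median -0.0094). This was 46.2% called, beside 31.4% of all genes tested (16.7% higher and 14.7% lower). Fancd2 (0.36) and Brca1 (0.33), both of fork protection and crosslink repair, were higher. Rad1 (-0.31), of the checkpoint clamp, and Chek1 (-0.18), the checkpoint kinase, were lower as deposited and turned to 0.055 and 0.19 with T-cell receptor beta scaling. The call of Rad1 was lost without KO 2, KO 3, WT 2, WT 3, WT 4 or WT 6, and that of Chek1 without KO 2, KO 3, KO 4 or any 1 of WT 2 to WT 6 (adjusted p of 0.0546 to 0.126 for Rad1 and 0.059 to 0.14 for Chek1). Both calls were also lost with no filter on low values or without trend.

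Genes of mitosis, the phase that follows replication, were listed for comparison. Of 25, 17 were higher and 0 lower in acute KO, beside 16.7% of all genes called higher, and all 25 lay above 0 (median 0.34, beside -0.023 over all genes). In the same KO libraries all 12 neutrophil and all 8 myeloid precursor markers were higher and 16 of 20 T-lineage markers were lower, and their part in the changes of this list and the 3 lists before it was not tested. Mki67, which coats mitotic chromosomes, had 23184, 20492, 21306 and 23747 normalized counts in KO, against 12533 to 16506 in WT, a log2 fold change of 0.59 (SE 0.0848, limma adjusted p = 0.000374). Plk1, a mitotic kinase, was higher by 0.52 (adjusted p = 0.00119). The count of higher mitosis genes was 9 without KO 1 or WT 6, 10 without KO 2, 11 without KO 4, 6 without KO 2 and KO 3 together and 9 in limma without trend. In either direction 31.4% of all genes were called with all libraries. That share was 32.7% without KO 1, 28.3% without WT 6, 22% without KO 2 and 30.7% without KO 4. It was 12.1% without KO 2 and KO 3 together and 27.7% in limma without trend. With the other-cell score as a covariate the mitosis count was 0, as over all genes. Library means over this list were 0.28 to 0.44 in KO, against -0.30 to 0.24 in WT, so WT libraries differed from each other by more than KO libraries did. In the survival arm limma called 0 genes of any of these 4 lists, and the mitosis median was -0.086. At an unadjusted p under 0.05 there were 0 of 48, 1 of 20, 2 of 13 and 1 of 25, beside 1411 of all 16136 genes. The difference between arms was called for 13 of 25 mitosis genes, all negative, beside 10.9% of all genes called negative. That count was 8 without acute KO 1 or survival KO 5 and 7 without survival KO 2 or survival WT 2. In either direction 22.6% of all genes were called without acute KO 1 and 19.4% without survival KO 5. The share was 16.8% without survival KO 2 and 18.1% without survival WT 2, against 20.2% with all libraries.

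**Figure D5:**
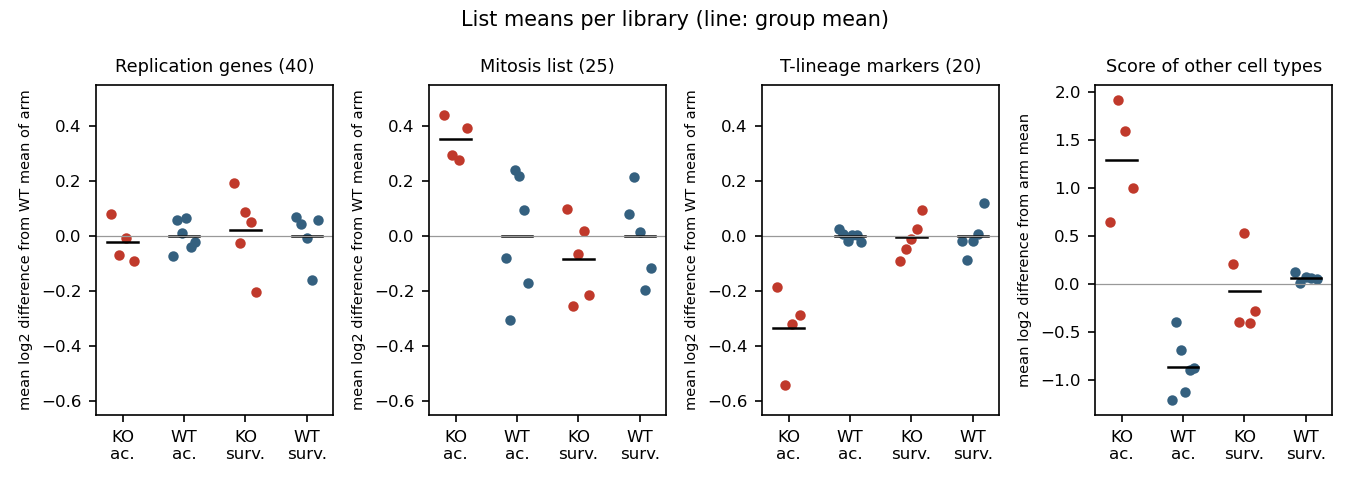
Mean log2 difference from the WT mean of the arm per library (lines at group means) for the 40 replication genes, the 25 mitosis genes and the 20 T-lineage markers, and the score of other cell types, with KO left of WT in the acute (ac.) and survival (surv.) arms. Replication means overlap in both arms, whereas acute KO libraries lie above WT in the mitosis list (0.28 to 0.44, against -0.30 to 0.24) and in the other-cell score, and below WT in T-lineage markers.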

How the data were processed

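Strand-specific RNA-seq of polyadenylated RNA in 20 libraries from leukemic mouse spleen was used, in 4 groups taken from the labels. The authors deposited 1 table per arm with a signal per gene and library, DESeq-normalized counts. Per the submitters' processing notes, kallisto 0.46.0 and build GRCm39 were used. No source used here gives the annotation or a filter. Between libraries, 54.8 to 81.5% of low values lay within 0.1 of a whole multiple of 1 step, so whole reads were not recovered, no count test was run and the depth in reads is unknown.

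Values were taken as log2(normalized count + 1). Genes reaching 10 in at least 4 acute or 5 survival libraries were tested with limma 3.58.1 in R 4.3.3 (lmFit, eBayes with trend), within each table, two-sided, with Benjamini-Hochberg adjustment over all genes tested. The difference between arms was a contrast over all 20 libraries. With a pseudocount of 1, fold changes of low genes are understated. Fits were tested on simulated data first. Rescaling to T-cell receptor beta genes or T-lineage markers, quantile normalization, a pseudocount of 8, no filter, other limma settings, a replicate block, a covariate and left-out libraries were the alternatives. Members and gene lists were chosen with earlier results of these data known. Values are given for Acly, every member called in an arm or between arms, Pcna, Mcm2 and Rrm2, and per companion list up to 2 rises and 2 falls. Orc1 and Rfc2 in the survival arm, and other members named beside their group, were chosen after their values were seen. Promoters are RefSeq's, and motif matches are letters only. Tables were handled and figures drawn with Python 3.11.15, pandas 2.3.3 and matplotlib 3.10.9.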

Additional observations from a re-analysis of the deposited data

Results flagged for a closer look

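In 7 of 164 checks of a replication gene or Acly within a group of 4 to 6 libraries, 1 library stood apart from the others, where chance gives about 5% of checks. In the acute WT group, WT 2 was the high library for Orc1 (708 normalized counts, with the other 5 libraries at 597 to 629), Pold2 (2564, others 2239 to 2343), Chaf1a (3272, others 2913 to 3047) and Chaf1b (1884, others 1572 to 1685), and WT 1 was the low library for Orc6 (1062, others 1219 to 1287). In the survival WT group, WT 5 was the high library for Cdt1 (3224, others 2291 to 2550) and Pold1 (6139, others 4409 to 4762). None of these 7 genes was called in either arm.

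The KO effect differed between the arms, by the limma test of survival minus acute log2 fold change, for Acly (-0.92) and for the members Dut (0.34) and Rfc3 (0.41). Among the companion genes named above, it differed for Samhd1 (-2.37), Asf1b (-0.32), Asf1a (0.42), E2f7 (-1.31), E2f8 (-0.63), E2f6 (0.60), Fancd2 (-0.47), Brca1 (-0.38), Mki67 (-0.77) and Plk1 (-0.65). The test called 20.2% of the 15673 genes tested in both arms. These companion genes were picked for their large acute changes. Those changes enter this difference, so the calls add no separate support. With T-cell receptor beta or T-lineage scaling neither Dut nor Rfc3 was called. Differences of the companion genes under these scalings are not given here. The score of other cell types was 0.65 to 1.92 in acute KO libraries, against -1.20 to -0.40 in acute WT libraries, and -0.40 to 0.53 in survival KO libraries, against 0.016 to 0.12 in survival WT libraries. Its part in these differences was not tested.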

How the results depend on the processing

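Alternatives numbered 20 for the acute arm, 19 for the survival arm and 30 for the difference between arms. Acute members called were 4 higher and 3 lower, with a median log2 fold change of -0.035, out of 2731 genes higher and 2409 lower. Survival calls were 0 members, out of 1 gene higher and 1 lower, and the difference called 2 members positive and 0 negative, out of 1471 and 1702 genes.

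Scaled to T-cell receptor beta genes, the acute arm gave 6959 genes higher and 97 lower, 28 members higher and 0 lower, a member median of 0.33 and Acly at -0.089 (adjusted p = 0.639). The acute signs of Dut (0.096), Rfc3 (0.12), Mcm6 (0.19), Pcna (0.29), Mcm2 (0.20), Asf1a (0.092), Tipin (0.16), E2f4 (0.16), Rad1 (0.055) and Chek1 (0.19) turned under it. In the survival arm 2 genes were lower, the member median was -0.085, and Dut (-0.041), Cdc45 (-0.10), Rrm2 (-0.062), Mcm6 (-0.065), Mcm10 (-0.018), Pcna (-0.059) and Mcm2 (-0.040) turned. The difference had 58 genes positive and 7260 negative, 0 members positive and 28 negative, and Dut (-0.14), Rfc3 (-0.066), Mcm6 (-0.26), Pcna (-0.35) and Mcm2 (-0.24) turned. Scaled to T-lineage markers, the acute arm gave 7460 genes higher and 157 lower, 32 members higher and 0 lower, a median of 0.30, Acly at -0.12 (adjusted p = 0.377), and turned signs of Dut (0.062), Rfc3 (0.088), Mcm6 (0.16), Pcna (0.26), Mcm2 (0.16), Asf1a (0.058), Tipin (0.12), E2f4 (0.13), Rad1 (0.021) and Chek1 (0.15). The survival arm had 0 genes higher, and the difference 84 positive and 4432 negative genes, 0 positive and 14 negative members, and turned signs of Mcm6 (-0.11), Pcna (-0.20) and Mcm2 (-0.085). By construction both scalings shift all genes of a library together.

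With the other-cell score as a covariate, 0 genes and 0 members were called in the acute arm in either direction, Acly was -0.81 (adjusted p = 0.785), and Pcna (0.10) and Samhd1 (-0.25) turned. The survival arm then had 0 genes higher, and the difference 1 gene positive and 0 negative, 0 members positive, Acly at -0.48 (adjusted p = 0.863) and Pcna at -0.030. Without acute KO libraries 2 and 3 there were 1386 genes higher and 693 lower and 1 member higher and 0 lower, and in the difference 375 genes positive, 876 negative and 0 members positive. Quantile normalization gave 4106 acute genes lower, Cdc45 at -0.013 in the survival arm and 2502 positive differences. limma without trend gave 1 acute member lower, 0 genes higher and 2 lower in the survival arm, and 1 positive member difference. No filter on low values also gave 1 positive member difference. Pseudocount 8 gave 4 genes higher and 2 lower in the survival arm, and robust empirical Bayes 3 higher. For changes other than by these constructions the cause was not tested.

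The replicate numbers are shared by KO and WT, but same-numbered libraries did not deviate together (correlations of -0.066 to 0.14), so they were not taken as pairs. A replicate block, on libraries whose number occurs in both genotypes, gave 2111 acute genes higher and 1161 lower, 20.5% of the 15974 genes tested. It called 0 members higher or lower. In the difference it gave 965 genes and 1 member positive, beside 15.4% of the 15443 genes called in either direction.

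Leaving out 1 library at a time gave 2127 to 2983 acute genes higher and 1521 to 2527 lower. Acute members were then 2 to 6 higher and 1 to 5 lower. Survival genes were 0 to 19 higher and 1 to 4 lower. The difference had 874 to 1683 genes positive and 1364 to 1897 negative, and 0 to 6 members positive and 0 to 1 negative. In the survival arm leaving out 1 library turned Cdc45 (-0.038 to 0.052), Rrm2 (-0.011 to 0.11), Tk1 (-0.11 to 0.012) and Mcm6 (-0.0018 to 0.12). Members called in the survival arm were 0 in all 19 alternatives. The depth in reads is unknown, so no floor is given.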
